A study of Arabidopsis thaliana with 16 samples.

Results

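Roots and shoots of Pi-starved Arabidopsis seedlings were compared in the poly(A)+ fraction, with 2 libraries of P- roots set against 2 libraries of P- shoots, 4 of the 16 libraries of the series. These libraries were chosen by growth medium, tissue and RNA fraction, and no measured value entered the choice. All plants were 10-day-old wild-type seedlings of the Col-0 ecotype, grown on vertical agar plates with sucrose. The P- medium held 0.65 mM K2SO4 in place of 1.25 mM KH2PO4. Loss of Pi and added K2SO4 thus came together in all P- plants and cannot be told apart. The 2 root and 2 shoot poly(A)+ libraries of seedlings from P+ medium, which kept the KH2PO4, show where the contrast of starved seedlings differs from that of fed ones. Whole roots and whole shoots were used, so each library mixes many cell types, and in such bulk samples fewer cells of a type and less RNA per cell cannot be told apart. The 2 libraries of a group are biological replicates by the methods of the study. The p-values rest on the spread between replicates, shared over the 4 poly(A)+ groups, P+ ones included, and over genes. Root libraries are called 2 and 3 here, after the numbers of their columns, and shoot libraries 1 and 2.

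Roots anchor the seedling and take up water, Pi and other minerals through root hairs and a tip that keeps growing, and the endodermis seals the stele with the Casparian strip and suberin. Shoots carry out photosynthesis in chloroplasts and exchange gas through stomata. When Pi runs short, the transcription factor PHR1 and its relatives bind the P1BS element and turn on Pi transporters, phosphatases, SPX proteins and the enzymes that replace phospholipids with galactolipids and sulfolipids. Some of these genes also respond to sugar or to other nutrients. How the 2 organs share this work is seen best when both are starved.

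The values are FPKM, fragments per kilobase of transcript and scaled to the size of the library, which give a level per length and can be compared between genes. A gene was the sum of its transcripts. Differences are given as log2 of P- roots over P- shoots after 1 FPKM was added, which makes the changes of low genes look smaller than they are. A gene was called when its adjusted p was 0.05 or less and its difference at least 2-fold, and only called genes are said to be higher or lower in an organ. The change of a tissue difference is the value under P- minus that under P+, tested in the same fit. Such changes rest on all 8 libraries, and with any 1 of the 4 shoot libraries left out there were 42 to 64 calls in place of 702, of which 41 to 61 were among the 702. Of 58 called changes examined one by one, 15 were called in every fit with a library left out, which is said beside them, and 43 were lost in at least 1. The files used here hold no read counts, so the depth behind a single value is unknown.

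The libraries carried the labelled tissues. Over the 19743 coding genes tested, Pearson's r of log2(FPKM + 1) was 0.946 between the 2 P- root libraries and 0.975 between the 2 P- shoot libraries, against 0.596 to 0.641 between P- root and P- shoot libraries. Of 15 root-defining markers, all 15 were called higher in P- roots, and of 15 shoot-defining markers 14 were called higher in P- shoots. The exception was AS1, a factor of leaf polarity, with 15.3 and 20.8 FPKM in P- roots against 48.9 and 37.6 FPKM in P- shoots. The shoot-defining markers summed to 319 FPKM in each P- root library, against 23878 and 20209 FPKM in P- shoots.

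The root-defining markers were not silent in P- shoots. Their median level there was 4.37% of the P- root mean in library 1 and 3.43% in library 2, and 0 and 1 of the 15 were at 0. In P+ shoots the same medians were 0.146% and 0.616%, with 7 and 3 of the 15 markers at 0. Without PYK10, a beta-glucosidase that shoots also express at 601 and 631 FPKM, the root-defining markers summed to 1333 and 1204 FPKM in P- roots against 53.5 and 42.7 FPKM in P- shoots. In P+ they summed to 936 and 1482 FPKM in roots and 4.12 and 6.96 FPKM in shoots. PLT1 and PLT2, factors of the root tip, stood at 0.128 and 0.16 FPKM and at 0.278 and 0.088 FPKM in P- shoots, whereas CASP1, a protein of the Casparian strip, stood at 18.8 and 10.5 FPKM. This root signal moves with the P- shoot libraries. It may bear on root genes with a smaller difference under P- than under P+, unless they were listed at 0 in P- shoots. In an alternative chosen after seeing the data, a root share of 4.37 and 3.43% of the P- root mean was taken off P- shoot libraries 1 and 2. It was run on every comparison, and the calls that it ended are named.

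**Figure D1:**
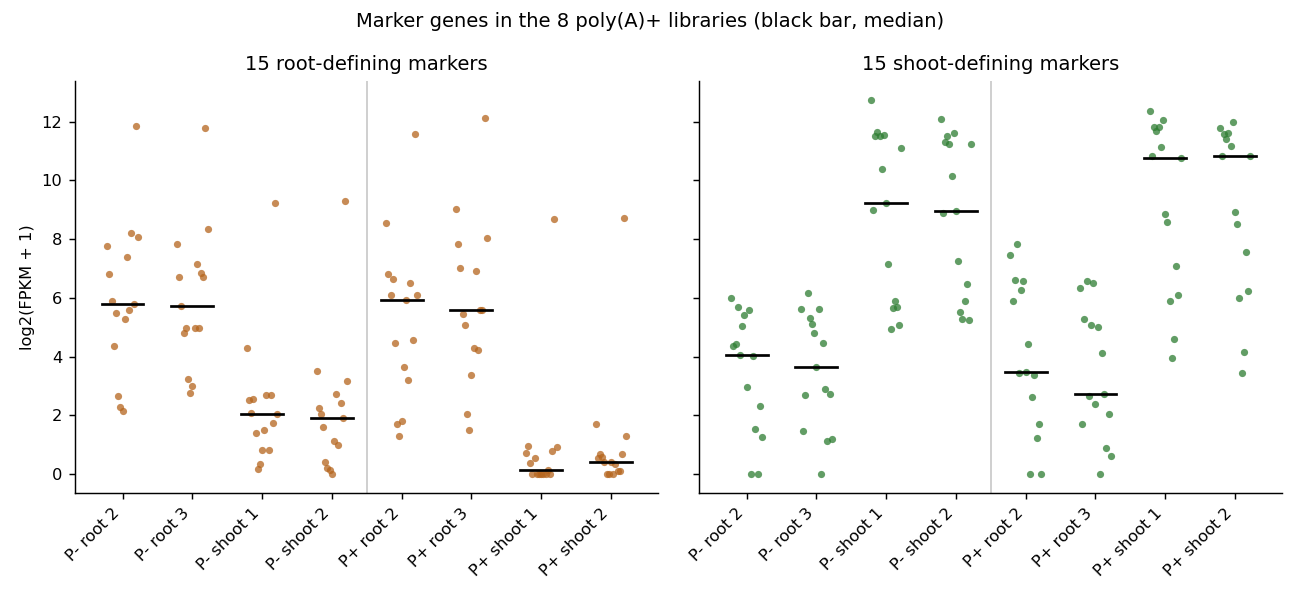
Levels, as log2(FPKM + 1), of 15 root-defining markers (left) and 15 shoot-defining markers (right) in the 8 poly(A)+ libraries, each point a gene and each bar the median of a library. Root-defining markers are high in all 4 root libraries, low in P- shoots and at or near 0 in P+ shoots apart from PYK10, while shoot-defining markers are high in the 4 shoot libraries.

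Of the 19743 coding genes, 7773 (39.4%) differed between P- roots and P- shoots. Of these, 4841 (24.5%) were higher in roots and 2932 (14.9%) higher in shoots. The counts of called members in each gene list below are to be read beside these shares. Root-higher genes held 35.3 and 31.8% of all coding FPKM in P- roots against 6.94 and 6.89% in P- shoots, and shoot-higher genes 5.43 and 6.12% against 42.4 and 41.9%. At 4-fold or more there were 2284 root-higher and 1651 shoot-higher genes, at 16-fold or more 260 and 538, and at 64-fold or more 4 and 150. The order at 16-fold turned with the root share taken off, to 650 root-higher and 537 shoot-higher genes. At 64-fold or more there were then 104 and 150. That step can only lower P- shoot values and so only raise the root side, and the cause of the order was not tested. The median difference over all genes was 0.32. When each library was rescaled to the median ratio of its genes, that median came to 0.04 and the calls to 3679 root-higher and 3554 shoot-higher, 50.9% root-higher in place of 62.3%, so the excess of root-higher genes rests on the scaling.

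The 12 genes with the largest root-side difference stood between that of THAS and 6.83 on the log2 scale. AT1G64590 (chr1:23993477-23995509 in TAIR10), an NAD(P)-binding Rossmann-fold protein, had 238 and 404 FPKM in P- roots against 1.67 and 1.79 FPKM in P- shoots, a log2 difference of 6.83 (SE 0.42, limma adjusted p = 8.04e-06). AIR1 (AT4G12550), first known from auxin-treated root cultures, had 137 and 230 FPKM against 0.816 and 1.97 FPKM (log2 difference 6.26). OCT1 (AT1G73220), an organic cation and carnitine transporter, had 333 and 220 FPKM in P- roots against 3.82 and 3.55 FPKM in P- shoots. In none of the 3 did a root library come near a shoot library. OCT1 had 15.8 and 2.15 FPKM in P+ roots, but its tissue difference of 5.86 under P- was not called different from 2.77 under P+ (adjusted p = 0.108). AIR1 had 767 and 1101 FPKM in P+ roots. Its tissue difference was called smaller under P- than the 8.87 under P+ (change -2.61, limma adjusted p = 0.0393). The change of AIR1 was not among those examined one by one. THAS, the thalianol synthase of a root triterpene cluster, closed the 12 with 270 and 322 FPKM against 3.15 and 7.93 FPKM. The other 8 were 2 LEA-like proteins (AT5G60530, AT5G54370), a glycine-rich protein (AT4G30450), a CAP protein (AT4G30320), an RNA-binding protein (AT4G13860), a mannose-binding lectin (AT1G52070), an O-methyltransferase (AT1G77520) and an MD-2-related lipid recognition protein (AT5G23840), with log2 differences of 5.64 to 6.35.

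The 12 genes at the shoot end had root levels near 0. AT1G23130 (chr1:8200321-8201246), a polyketide cyclase and lipid transport family protein, had 0.4 and 0 FPKM in P- roots against 2379 and 1887 FPKM in P- shoots, a log2 difference of -10.81 (SE 0.35, adjusted p = 9.38e-07). The myrosinase TGG1, which releases toxic products from glucosinolates in leaf guard cells and myrosin cells, had 1.39 and 1.31 FPKM against 2195 and 2392 FPKM (-9.93, SE 0.26). GER3, a germin-like cell wall protein, was listed at 0 in both P- root libraries and at 618 and 660 FPKM in P- shoots. AT3G05727, annotated with a pollen coat protein family, was also listed at 0 in both root libraries and had 886 and 444 FPKM in shoots. The remaining 8 were CA1 (the main chloroplast carbonic anhydrase), the antenna gene LHCB1.4, the Rubisco gene RBCS2B, the outer envelope protein OEP6, TGG2, GASA6, a lipid-transfer family protein (AT2G10940) and an uncharacterized protein (AT1G67865), at -9.07 to -9.89. Gene copies as alike as those of LHCB1, RBCS and BGLU21 with BGLU22 may trade reads in the authors' estimates, so a value of a single copy is less certain than that of its family.

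Photosynthesis genes had the lowest medians of the 25 lists. The 83 genes of 6 lists, the photosystem II (PSII) subunits, light-harvesting complex II (LHCII), photosystem I (PSI) with its antenna, electron carriers with ATP synthase, the Calvin cycle and photorespiration, took 0.258 and 0.246% of all coding FPKM in P- roots against 11.8 and 10.4% in P- shoots. In P+ roots they took 0.616 and 0.447%, and in P+ shoots 14.5 and 12.6%. Of the 83 genes, 79 were called higher in P- shoots and none in P- roots, where 14.9% and 24.5% of all genes were called. The median differences of the lists ran from -7.06 (PSI with antenna) to -4.31 (photorespiration), beside 0.32 for all genes.

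PSBQ2, a subunit of the oxygen-evolving complex, had 10.3 and 7.8 FPKM in P- roots against 2559 and 2331 FPKM in P- shoots (-7.94, SE 0.25, adjusted p = 8.28e-07). PSAH2, a PSI subunit, had 8.75 and 7.06 FPKM against 1543 and 1564 FPKM (-7.45, SE 0.23). RBCS2B, a small subunit of Rubisco, had 1 and 5.68 FPKM in P- roots against 2030 and 2046 FPKM in P- shoots (-9.12, SE 0.50). All 3 lay far lower in both P- root libraries than in either P- shoot library. Their promoters, the 250 bases before the RefSeq start of the gene in TAIR10.1, are shown because they carry the elements that light-regulated genes are known for. Capitals mark the I-box (GATAAG or its reverse CTTATC) and the G-box (CACGTG, the same on both strands), searched on both strands, and the 3 were picked after the motif counts were seen. The windows are chr5:15382072-15382321 on the minus strand for RBCS2B, chr4:2673244-2673493 on the minus strand for PSBQ2 and chr1:19454548-19454797 on the plus strand for PSAH2, each 5′ to 3′ along the gene.
RBCS2B: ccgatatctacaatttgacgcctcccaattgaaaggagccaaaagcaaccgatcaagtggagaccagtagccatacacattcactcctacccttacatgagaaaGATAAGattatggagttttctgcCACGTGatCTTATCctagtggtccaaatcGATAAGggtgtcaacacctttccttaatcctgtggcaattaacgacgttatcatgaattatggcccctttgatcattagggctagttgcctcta
PSBQ2: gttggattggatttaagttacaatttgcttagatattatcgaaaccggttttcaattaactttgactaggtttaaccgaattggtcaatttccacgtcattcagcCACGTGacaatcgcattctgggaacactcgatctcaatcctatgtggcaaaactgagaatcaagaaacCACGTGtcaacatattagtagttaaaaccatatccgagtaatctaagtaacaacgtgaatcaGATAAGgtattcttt
PSAH2: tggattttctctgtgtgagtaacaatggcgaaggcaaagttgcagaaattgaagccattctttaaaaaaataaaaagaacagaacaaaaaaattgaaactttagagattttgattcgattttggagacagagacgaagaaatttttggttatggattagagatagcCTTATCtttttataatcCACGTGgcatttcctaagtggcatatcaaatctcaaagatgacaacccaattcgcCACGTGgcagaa
An I-box stood in the window of 18 of the 83 photosynthesis genes (21.7%), of 16.5% of shoot-higher genes and 10.6% of root-higher genes, against 12.4% of 19667 genes with a window. A G-box stood in 14 of the 83 (16.9%), in 7.8% of shoot-higher and 7.37% of root-higher genes, and in 7.27% of all. A match of letters is a description of the window, not a site shown to be used.

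Of the 83 genes, 4 did not pass. LHCB4.3 had 4.29 and 10.5 FPKM in P- roots against 17.6 and 9.74 FPKM in P- shoots, and the libraries overlapped. TKL1, a transketolase shared with the pentose phosphate pathway, had 204 and 178 FPKM against 386 and 378 FPKM and missed the fold of 2. GLDP2, a glycine decarboxylase subunit, had 107 and 137 FPKM in P- roots against 68.5 and 77.1 FPKM in P- shoots (0.73, adjusted p = 0.0939). CAT2, a catalase of leaf peroxisomes, had 202 and 195 FPKM in P- roots against 162 and 161 FPKM in P- shoots (0.30, adjusted p = 0.344). Fed plants differed here, with 184 and 236 FPKM of CAT2 in P+ roots and 508 and 503 FPKM in P+ shoots, and the change of 1.57 in its tissue difference was called (adjusted p = 0.0433). GLDP1 moved the same way, with a tissue difference of -1.60 under P- and -3.84 under P+ (adjusted p of the change = 0.0187).

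Several chloroplast genes had a wider gap under P- than under P+, with lower values in both P- root libraries than in either P+ root library. PSBQ2 stood at 10.3 and 7.8 FPKM in P- roots, against 46.8 and 38.9 FPKM in P+ roots, and its difference widened by -2.40 (adjusted p = 0.0143). The same call was made for PSBO2 (-2.24), PSAF (-2.63), PSAK (-1.81), ATPC1 (-1.81) and CP12-1 (-2.11). Leaving out any of the 4 shoot libraries ended each of these calls, with PSBQ2 at -2.30 to -2.50. CP12-1 was the only called change of the Calvin cycle list and went against most of it. In that list 15 of 19 changes were above 0, toward a smaller gap under P- (median 0.32).

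**Figure D2:**
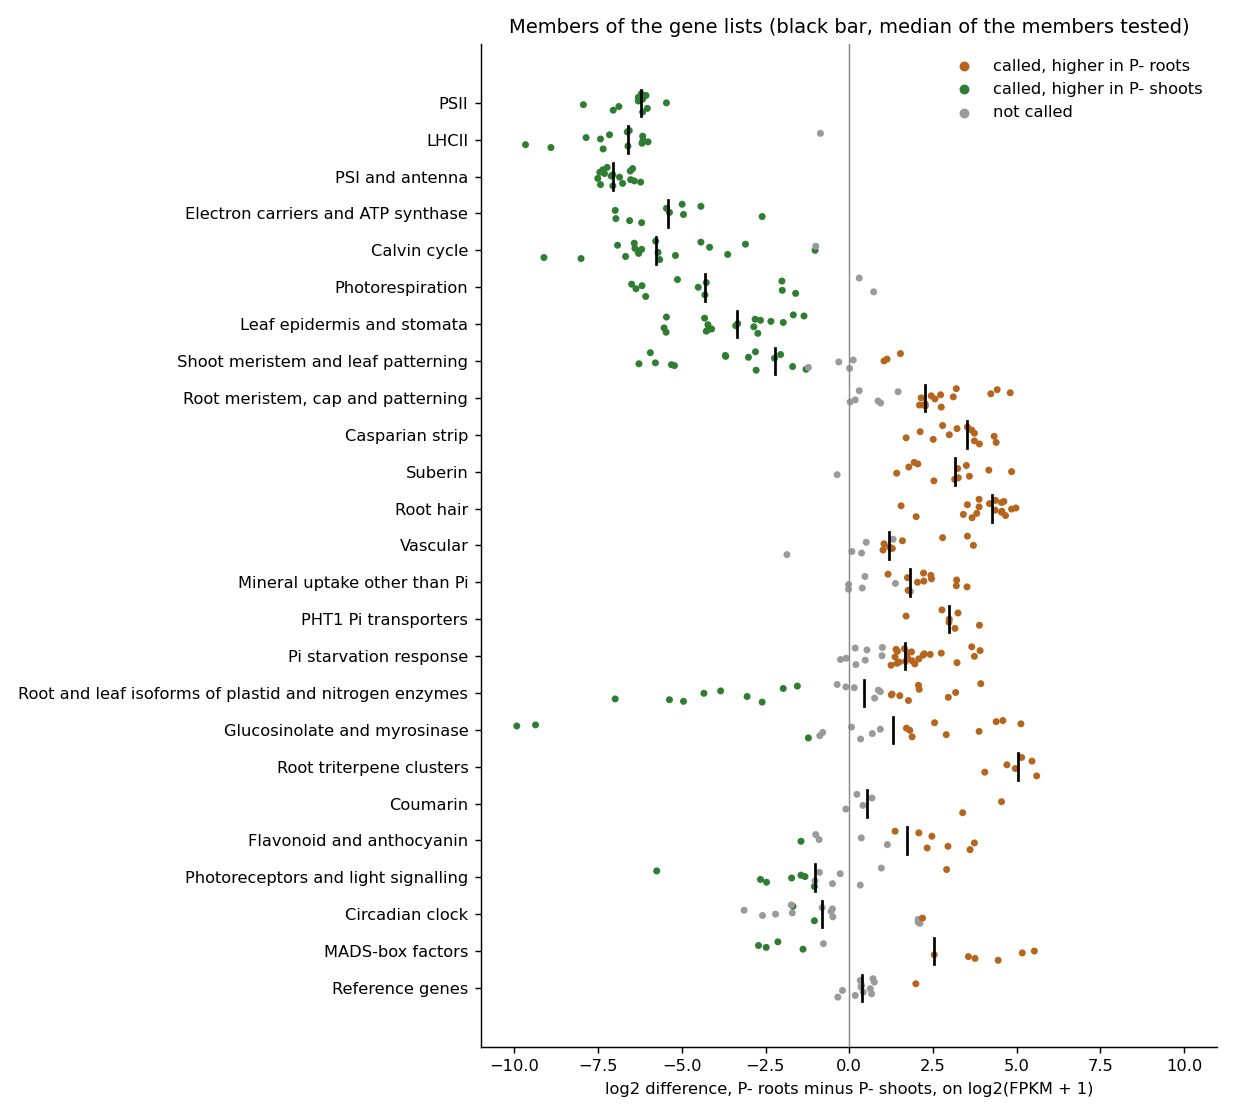
Log2 difference, P- roots minus P- shoots, of the tested members of 25 gene lists. Each point is a gene, coloured by whether and how it was called, and the black bar is the list's median. Medians of the photosynthesis lists lie between -7.06 and -4.31, those of root hair and Casparian strip genes at 4.27 and 3.53, and that of the reference genes at 0.39.

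The shoot surface and its stomata were as clearly marked. All 18 tested genes of the leaf epidermis list, of 19 in it, were higher in P- shoots, with a median of -3.36. FAMA, a switch of guard cell formation, was listed at 0 in both P- root libraries and had 47.6 and 39.3 FPKM in P- shoots, and EPF1 and EPF2, peptides that space stomata, were also at 0 in roots. LTP1, a lipid-transfer protein of the epidermis, had 36 and 29.2 FPKM against 1381 and 1571 FPKM (-5.46, SE 0.35). PDF1, an epidermal marker, had 71 and 83.5 FPKM in P- roots and 260 and 359 FPKM in P- shoots, against 22.9 and 19 FPKM in P+ roots and 304 and 278 FPKM in P+ shoots. Its gap was smaller under P- by 1.76 (adjusted p = 0.0383), as was that of BDG, a cutin gene, by 1.97 (adjusted p = 0.038).

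Genes of the YABBY family specify the lower leaf face. YAB1, YAB2, YAB3 and YAB5 were listed at 0 in both P- root libraries, and YAB3 had 71.9 and 81.8 FPKM in P- shoots. Of the 21 tested genes of shoot meristem and leaf patterning, 14 were higher in shoots and 3 in roots (median -2.23). GLK1, a factor that drives chloroplast genes, had 0.504 and 0.594 FPKM in P- roots against 97.1 and 91.1 FPKM in P- shoots (-5.94, SE 0.28). The 3 that went the other way were the class III HD-ZIP genes PHB and REV, which also pattern the root stele, and AN3, a coactivator of cell proliferation. PHB had 24.6 and 37 FPKM in P- roots against 13.1 and 15.3 FPKM in P- shoots (1.04), REV 19.5 and 31.9 against 9.66 and 12.2 FPKM (1.13), and AN3 20.9 and 57.4 against 10.5 and 12.3 FPKM (1.53). These 3 calls were lost when P- root library 3 or either P- shoot library was left out, and rescaling to the median ratio gave 1 root-higher call in the list.

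The root tip list holds genes of the meristem, the cap and radial patterning. Of 19 tested, 13 were higher in P- roots and none in shoots (median 2.27). RGF3, a peptide that maintains the root meristem, had 40.2 and 43 FPKM in P- roots against 1.32 and 0 FPKM in P- shoots (4.81, SE 0.46), and PIN2, an auxin efflux carrier of the root tip, 54.4 and 103 against 2.33 and 2.74 FPKM (4.42). The radial patterning genes SHR, SCR and JKD did not pass. SCR had 17 and 30.9 FPKM in P- roots against 21.8 and 23.2 FPKM in P- shoots, and the libraries overlapped (0.03, adjusted p = 0.959).

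Root hair genes were called without exception. All 18 were higher in P- roots (median 4.27), and 24.5% of all genes were. PRP3, a proline-rich wall protein of hairs, had 294 and 115 FPKM in P- roots against 5.45 and 4.33 FPKM in P- shoots (4.98, SE 0.47, adjusted p = 6.03e-05), and XTH14, a wall-modifying enzyme, 350 and 202 FPKM against 10.3 and 9.45 FPKM (4.62). RHD6 and RSL2, transcription factors that start and sustain hair growth, had 34.2 and 26.5 FPKM against 1.79 and 1.14 FPKM and 67.1 and 38 FPKM against 1.26 and 0.807 FPKM. Every member had its lowest root library above its highest shoot library. With 2 libraries a group this is a description of called genes, not a further test. The P+ median was 3.90, and no change of the 18 differences between P- and P+ was called. With 0.1 FPKM added instead of 1, 4 of the 18 were called smaller under P- (median change -2.23). CSLD3, a cellulose synthase-like protein of hair tips, was the weakest, with 50.6 and 41.7 FPKM against 15.9 and 14.2 FPKM (1.55), and its call was lost with any 1 P- library left out.

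All 13 Casparian strip genes and 12 of 13 suberin genes were higher in P- roots, with medians of 3.53 and 3.15 under P- and 5.38 and 4.29 under P+. With the root share taken off P- shoots the P- medians came to 4.41 and 3.77, and the median change between supplies to -0.93 and -0.17. CASP1 had 218 and 227 FPKM in P- roots and 18.8 and 10.5 FPKM in P- shoots, against 370 and 524 FPKM in P+ roots and 0.652 and 2.26 FPKM in P+ shoots. Its tissue difference was 3.89 under P- and 7.57 under P+, smaller by -3.68 (adjusted p = 0.0151). Such calls were also made for CASP4, CASP5 and the peroxidase PER64. With the root share taken off P- shoots the calls of CASP1, CASP4 and PER64 were lost and that of CASP5 was made, which had 6.26 and 2 FPKM in P- roots against 50.2 and 53.7 FPKM in P+ roots. Its tissue difference of 1.70 under P- was itself lost without P- root library 2 or either P- shoot library (1.07 to 1.80). CASP1 then stood at -2.40 (adjusted p = 0.102). CASP1 and CASP4 are among the 15 markers from which that share was taken, so the loss of their calls is not independent of it. KCS20, an elongase of suberin and wax, was the suberin gene that did not pass, with 65.6 and 63.8 FPKM in P- roots against 71 and 97.1 FPKM in P- shoots. FAR1, a fatty acyl reductase of suberin, was the one whose direction turned, with 90.5 and 37.2 FPKM in P- roots and 18.1 and 24.6 FPKM in P- shoots, against 9.01 and 21.9 FPKM in P+ roots and 56.6 and 74.2 FPKM in P+ shoots (change 3.54, adjusted p = 0.0345). Its P- difference of 1.42 was lost without P- root library 2 (0.79) or any shoot library.

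Vascular genes divided less. Of 13, 8 were higher in P- roots and none in P- shoots (median 1.20), but rescaling to the median ratio gave 5 root-higher calls and 1 shoot-higher call, and there were 3 root-higher calls without P- root library 3, 4 without P- shoot library 1 and 5 without P- shoot library 2. XCP1, a protease of xylem cell death, had 88.2 and 168 FPKM in P- roots against 8.02 and 8.72 FPKM in P- shoots (3.71), and the secondary wall synthases CESA4, CESA7 and CESA8 stood at 1.01 to 1.29, calls that were lost without P- root library 3 or a P- shoot library. SUC2, the sucrose loader of the phloem, leaned to shoots, with 41.9 and 102 FPKM against 235 and 246 FPKM (-1.86, adjusted p = 0.0595). PHO1, which loads Pi into the root xylem, had 149 and 178 FPKM in P- roots and 23.3 and 22 FPKM in P- shoots, against 174 and 221 FPKM in P+ roots and 7.77 and 6.88 FPKM in P+ shoots. The change of -1.78 was called (adjusted p = 0.0326) and was lost with the root share taken off (-1.32, adjusted p = 0.0801).

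Pi transporters of the PHT1 family were root genes in starved seedlings. All 7 tested of 9 were higher in P- roots, with a median of 2.99. PHT1;1 had 899 and 785 FPKM in P- roots against 104 and 83.4 FPKM in P- shoots (3.16, SE 0.30, adjusted p = 5.93e-05). PHT1;2 had 471 and 322 FPKM against 26.3 and 24.5 FPKM (3.89, SE 0.50), and PHT1;4 451 and 223 FPKM against 38.3 and 40.4 FPKM (2.98, SE 0.39). The 2 groups did not overlap for any of the 7, which is a description of called genes and no further test. PHT1;2 stood at 12.5 and 7.94 FPKM in P+ roots and at 2.16 and 2.43e-09 FPKM in P+ shoots, below all 4 P- libraries, while its tissue difference was not called changed (1.26, adjusted p = 0.338). PHT1;8 had 17.4 and 21.5 FPKM in P- roots and 1.43 and 0.882 FPKM in P- shoots, against 1.07 and 1.49 FPKM in P+ roots and 0 FPKM in both P+ shoot libraries. Its gap widened by 2.07 (adjusted p = 0.0455), a value that depends on the 1 FPKM added. With 0.1 FPKM added instead, no member of the list had a called wider gap, and the median change was -0.47 in place of 1.26. With 5 FPKM added 2 members had one. For PHT1;1 the gap narrowed by -2.04 (adjusted p = 0.0379), a call that was lost with the root share taken off (-1.43, adjusted p = 0.107).

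The wider Pi starvation response was also weighted to roots. Of 30 tested members of 32, 22 were higher in P- roots, none in P- shoots, and 8 did not pass. Over all genes 24.5% were root-higher and 14.9% shoot-higher. The list median was 1.67 under P- and 0.89 under P+. SPX3, a Pi sensor protein, had 554 and 335 FPKM in P- roots and 46.2 and 44.2 FPKM in P- shoots (3.22, SE 0.32), against at most 0.674 FPKM in any P+ library. NPC4, a phospholipase C that frees Pi from membranes, had 180 and 104 FPKM against 11.4 and 7.53 FPKM (3.74), and PHO1;H1, a relative of PHO1, 86.1 and 56.1 against 8.33 and 10.9 FPKM (2.75). The phosphatase genes PS2 and PEPC1 had 865 and 496 FPKM against 110 and 135 FPKM and 958 and 540 FPKM against 153 and 156 FPKM. For these genes each starved root library lay above each starved shoot library.

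Of the 8 that did not pass, several are highly expressed in both starved organs. AT4, a noncoding target mimic of miR399, had 2235 and 1994 FPKM in P- roots against 1834 and 1854 FPKM in P- shoots (0.20, adjusted p = 0.573). In fed plants AT4 had 113 and 103 FPKM in roots and 7.81 and 11.5 FPKM in shoots, so its tissue difference was smaller under P- by -3.18 (adjusted p = 0.00649). IPS1, the other mimic, had 1357 and 957 FPKM in P- roots against 492 and 466 FPKM in P- shoots and was higher in roots (1.25, adjusted p = 0.0248), a call that was lost without P- root library 2 (1.00) or after rescaling to the median ratio (0.96, adjusted p = 0.0807). SQD1 and MGD2, enzymes of sulfolipid and galactolipid synthesis, did not pass the test, with 151 and 124 FPKM against 164 and 165 FPKM and 59.7 and 43 FPKM against 48.2 and 60.6 FPKM. SQD2, the second step of sulfolipid synthesis, turned round, with 485 FPKM in each P- root library and 117 and 111 FPKM in P- shoots, against 20.8 and 29.4 FPKM in P+ roots and 53.3 and 54.5 FPKM in P+ shoots. The change of 3.18 was called (adjusted p = 0.0049), as were those of SPX3 (3.12) and PEPC1 (4.43), while PPCK1 and PPCK2, kinases of PEP carboxylase, narrowed by -2.36 and -3.34. SPX3 was near 0 in all P+ libraries, so its change depends on the 1 FPKM added. The list had 3 called larger changes, but 1 with 0.1 FPKM added and 6 with 5 FPKM added. The smaller differences of AT4, PPCK1 and PPCK2 were also called with the root share taken off (-3.12, -2.16 and -3.13). Rescaling to the median ratio gave 19 root-higher calls in this list in place of 22.

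Promoters of 2 of these genes are shown for the P1BS element, the site of PHR1 (GNATATNC, which reads the same way on both strands). Capitals mark each match in the 250 bases before the RefSeq start in TAIR10.1. The windows are chr2:18606160-18606409 on the plus strand for SPX3 and chr5:17415448-17415697 on the plus strand for PHT1;2, again picked after the motif counts were seen.
SPX3: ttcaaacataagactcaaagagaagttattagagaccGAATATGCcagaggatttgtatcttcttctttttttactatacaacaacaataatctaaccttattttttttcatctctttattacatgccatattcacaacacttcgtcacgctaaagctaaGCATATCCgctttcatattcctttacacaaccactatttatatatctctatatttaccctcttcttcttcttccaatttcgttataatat
PHT1;2: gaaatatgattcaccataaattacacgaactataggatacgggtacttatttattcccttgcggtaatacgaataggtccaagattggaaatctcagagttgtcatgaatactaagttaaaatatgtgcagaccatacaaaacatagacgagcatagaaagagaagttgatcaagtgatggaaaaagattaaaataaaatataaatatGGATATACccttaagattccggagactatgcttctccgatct
The element stood in 11 of the 37 tested Pi starvation and PHT1 genes (29.7%), against 5.57% of all windows. It stood in 6.44% of root-higher and 5.34% of shoot-higher genes, close to the share of all. Neither SPX1, IPS1, SQD2 nor PHT1;1 had a match in this window. The study lists P1BS elements for each of these genes in longer promoters, counted from the first ATG. A match may thus lie outside this window, upstream or downstream of it.

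Uptake systems for other minerals were also called on the root side alone. Of 17 tested, 11 were higher in P- roots and none in shoots, with a median of 1.83 under P- and 3.32 under P+. IRT1, the main iron importer of the root surface, had 5.77 and 3.48 FPKM in P- roots against 303 and 120 FPKM in P+ roots, and was listed at 0 in all 4 shoot libraries. FRO2, the ferric reductase that works with it, had 2.56 and 3.33 FPKM in P- roots against 83 and 36.1 FPKM in P+ roots, and its tissue difference was smaller under P- by -3.57 (adjusted p = 0.0207). The FRO2 difference of 1.74 under P- was lost without P- root library 3 (1.60) or P- shoot library 2 (1.63). NAR2.1, the partner of the high-affinity nitrate transporters, had 101 and 81.1 FPKM in P- roots and 25.3 and 26.7 FPKM in P- shoots, against 179 and 279 FPKM in P+ roots and 9.11 and 5.84 FPKM in P+ shoots (change -2.99, adjusted p = 0.0143). The ammonium transporter AMT1;1 did not pass the test under P-, with 125 and 96.3 FPKM against 77.6 and 89.7 FPKM (0.39, adjusted p = 0.248), and its change of -1.76 was called (adjusted p = 0.0386). These 4 calls were also made with the root share taken off.

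Coumarins are secreted by roots and mobilise iron. CYP82C4, which makes sideretin, had 0.562 and 0.135 FPKM in P- roots and 0 FPKM in both P- shoot libraries, against 54.5 and 15 FPKM in P+ roots, so no tissue difference was called under P- (0.41, adjusted p = 0.565). The list median was 0.55 under P- and 4.08 under P+. F6'H1, which makes scopoletin, and the exporter PDR9 were the 2 of 6 tested genes higher in P- roots, where 24.5% of all genes were. PDR9 had 142 and 80.5 FPKM against 3.11 and 4.19 FPKM (4.55, SE 0.42).

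**Figure D3:**
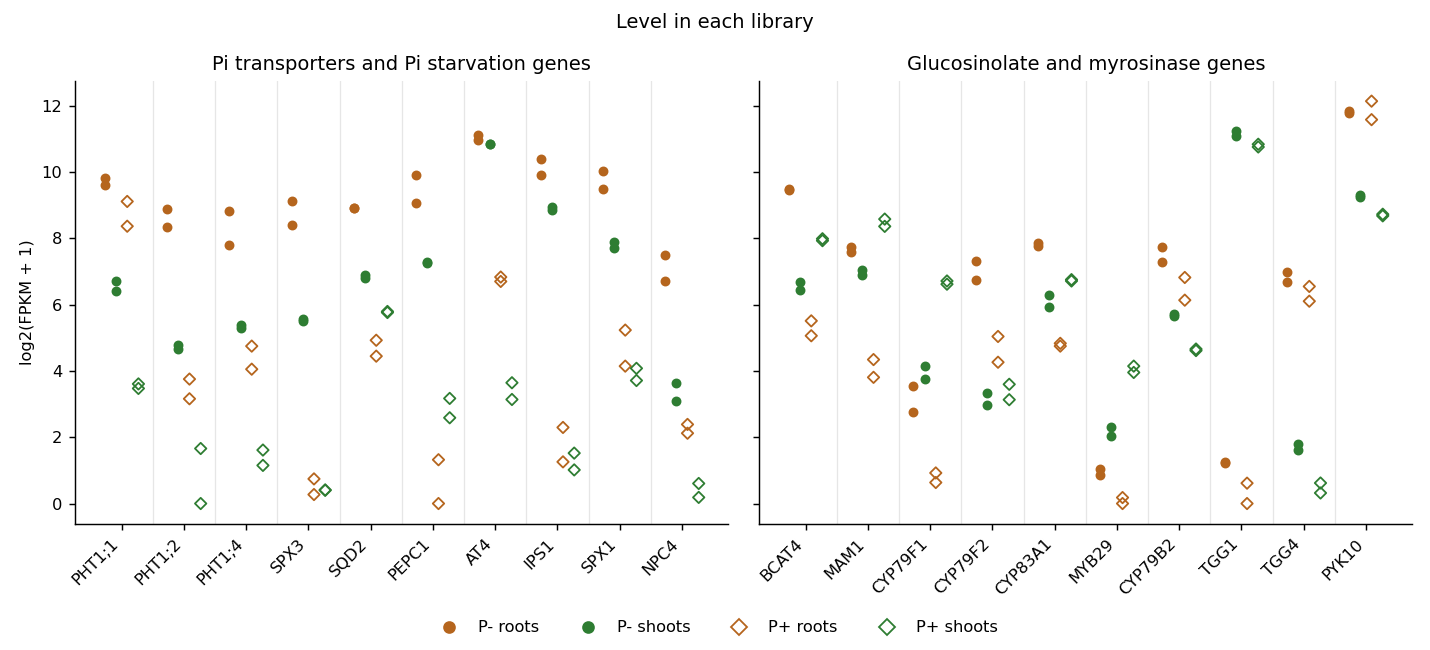
Level, as log2(FPKM + 1), of 10 Pi starvation genes (left) and 10 glucosinolate and myrosinase genes (right) in each of the 8 poly(A)+ libraries, filled circles for P- and open diamonds for P+, brown for roots and green for shoots. P- roots lie above P- shoots for the Pi genes except AT4, where they nearly meet. BCAT4 and CYP83A1 lie higher in roots under P- and higher in shoots under P+.

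Part of aliphatic glucosinolate synthesis changed sides between the P+ and P- media, which differ in K2SO4 as well as in Pi. BCAT4, the first step in lengthening methionine for these defence compounds, had 712 and 701 FPKM in P- roots and 102 and 86.5 FPKM in P- shoots, against 44.6 and 32.4 FPKM in P+ roots and 243 and 253 FPKM in P+ shoots. Its tissue difference was 2.90 under P- and -2.67 under P+, a change of 5.57 (SE 0.35, adjusted p = 0.00104). The groups did not overlap under either supply and stood in opposite order. CYP83A1 went the same way, at 1.71 and -1.95 (change 3.66, adjusted p = 0.00237). MAM1 and CYP79F1, at the chain elongation and core steps, had strong shoot preference in fed plants (-4.40 and -5.89) and no call under P- (0.69 and -0.79), though CYP79F1 was called after rescaling to the median ratio. Of 18 genes in the list, 6 had a called change in this direction. The calls of BCAT4, MAM1, CYP79F1 and CYP83A1 were made in every fit with a library left out.

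Myrosinases stayed apart by organ. TGG1 and TGG2 were shoot genes under both supplies, and TGG4, a root myrosinase, had 126 and 101 FPKM in P- roots against 2.04 and 2.49 FPKM in P- shoots (5.13, SE 0.29). The ER-body enzymes BGLU21 and BGLU22 had 686 and 556 FPKM against 28.6 and 28.3 FPKM and 470 and 414 FPKM against 17.8 and 16.9 FPKM. Their tissue differences were called smaller under P- by -2.01 and -2.22, but with the root share taken off the change turned to 0.72 and 1.25, with no call. MYB29, a regulator of the aliphatic genes, was the third shoot-higher member of the list, with 0.809 and 1.08 FPKM in P- roots against 3.99 and 3.09 FPKM in P- shoots, and was lost without P- root library 2 (-1.12) or P- shoot library 1 (-1.07). All 6 genes of the thalianol and marneral clusters were higher in P- roots, between 4.05 for THAH and the value of THAS.

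Enzymes with a root and a leaf form divided by form. Of 24 such genes, 9 were higher in P- roots and 9 in P- shoots. The leaf ferredoxin FD2 had 22.4 and 20.1 FPKM in P- roots against 634 and 743 FPKM in P- shoots (-4.95), and the root form FD3 243 and 230 FPKM against 62.1 and 76.4 FPKM (1.77). For ferredoxin reductase, LFNR2 stood at -6.99 and RFNR2 at 2.96, and for glutamate synthase GLU1 stood at -4.34 and GLU2 at 3.18. The chloroplast glutamine synthetase GLN2 had 83.9 and 109 FPKM against 801 FPKM in each P- shoot library (-3.05), and the cytosolic GLN1;1 had 343 and 335 FPKM against 122 and 115 FPKM (1.51). PEP carboxylase PPC3 was higher in P- roots, with 327 and 248 FPKM against 16.5 and 19 FPKM (3.93). PPC2, with 25.8 and 27.9 FPKM in P+ roots and 109 and 112 FPKM in P+ shoots, was not called under P- (-0.36, adjusted p = 0.211), and the change of 1.64 was called (adjusted p = 0.0283).

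Regulators of light, time and flowering gave a mixed picture. Of 14 photoreceptor and light signalling genes 7 were higher in P- shoots, led by PIF4 with 1.2 and 0.373 FPKM in P- roots against 92.1 and 93.2 FPKM in P- shoots (-5.75, SE 0.30). HY5, a light-activated bZIP factor that also moves to roots, was the one root-higher member, with 28.9 and 101 FPKM against 7.95 and 5.01 FPKM (2.91, adjusted p = 0.00235). Rescaling to the median ratio gave 9 shoot-higher calls. Of 11 tested MADS-box genes, 6 were higher in roots and 4 in shoots. AGL42 had 114 and 133 FPKM in P- roots against 3.03 and 0.798 FPKM in P- shoots (5.53), and SVP, a floral repressor, 24.9 and 37.2 against 200 and 152 FPKM (-2.48).

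The 2 P- root libraries differed in their clock genes. CCA1, which peaks at dawn, had 18.5 and 1.63 FPKM in P- root libraries 2 and 3, and LHY 29 and 1.35 FPKM. The evening gene ELF4 ran the other way with 35.3 and 399 FPKM, and PRR5 had 3.65 and 18.8 FPKM. The P- shoot libraries were close, for ELF4 at 200 and 221 FPKM. Of 15 clock genes only RVE4 and LUX were called higher in shoots, where 14.9% of all genes were. PRR9 was called higher in roots, where 24.5% of all genes were, with 21.9 and 3.99 FPKM against 1.19 and 1.5 FPKM. All 3 calls were lost without P- root library 2 or either P- shoot library. No sampling time is given in the labels. Flavonol genes also parted between the 2 root libraries, FLS1 at 24.4 and 209 FPKM against 4.21 and 4.75 FPKM in P- shoots (3.74, adjusted p = 0.0104), a call lost without P- root library 3 (2.22). Of 12 flavonoid genes tested, 7 were higher in P- roots and 1, LDOX, in P- shoots (2.53 and 0.679 against 5.62 and 5.6 FPKM). The 7 root-higher calls came to 3 without P- root library 3, 3 without P- shoot library 1 and 4 without P- shoot library 2. Of 12 reference genes only GAPC1 was called, with 1103 and 642 FPKM in P- roots against 209 and 215 FPKM in P- shoots (1.99, adjusted p = 0.00932), and its call was lost without P- root library 2 (1.59) or either P- shoot library.

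Organ identity was largely shared by starved and fed seedlings. Across the 19743 genes the P- and P+ tissue differences, which come from different libraries, had a Pearson's r of 0.851, a description across genes that are not independent. Of the 7773 genes called under P-, 5668 (72.9%) were called the same way under P+, which is 67.8% of the 8354 P+ calls (42.3% of genes, 26.2% higher in roots and 16.1% in shoots). Another 55 were called in opposite directions. Under P- alone 2050 were called, and for 117 of these the change between supplies was itself called. On the root side 260 genes stood at 16-fold or more under P- against 688 under P+, but with the root share taken off P- shoots there were 650. The shoot side had 538 against 546.

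The change of the tissue difference itself was called for 702 genes (3.56%), 324 (1.64%) with a larger value under P- and 378 (1.91%) with a smaller one. With the root share taken off P- shoots the counts were 360 and 239, so the order of the 2 counts turned. Among the 8 named on the upper side, which were called in every fit with a library left out, 7 were higher in roots under P- and higher in shoots under P+. ACA1, an alpha carbonic anhydrase (AT3G52720), had 82.7 and 82.1 FPKM in P- roots and 23.5 and 19.2 FPKM in P- shoots, against 0.788 and 0.326 FPKM in P+ roots and 31.1 and 32.9 FPKM in P+ shoots (change 6.33, SE 0.38, adjusted p = 0.00104). TAT3, a tyrosine aminotransferase induced by jasmonate, had 58.5 and 52.4 FPKM and 2.31 and 2.45 FPKM in the P- roots and shoots, against 1.02 and 0.285 FPKM and 4.37 and 4.49 FPKM in the P+ ones (5.81). JAZ10, a repressor of jasmonate signalling, followed with 36.9 and 42.5 FPKM and 2.37 and 4.47 FPKM under P- (5.69). The methionine-linked enzymes AK3, HMT3 and BCAT4, the methyltransferase FAMT and AT4G36850, a PQ-loop family protein, made up the 8.

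On the lower side SWEET12, a sucrose exporter of leaf phloem parenchyma, had 0.85 and 1.59 FPKM in P- roots and 201 and 196 FPKM in P- shoots, against 21.1 and 26.1 FPKM in P+ roots and 81.2 and 78 FPKM in P+ shoots. The gap grew toward shoots by -4.79 (SE 0.37, adjusted p = 0.00189). SWEET12, AT4G08360, AT4G12520 and AT3G56730 were called in every fit with a library left out. AT4G08360, a KOW domain protein, was listed at 0 in all 4 P- libraries and in both P+ shoot libraries and had 25.1 and 32.9 FPKM in P+ roots. AT4G12520, a lipid-transfer family protein, had 445 and 365 FPKM in P- roots and 22.9 and 34.1 FPKM in P- shoots, against 475 and 617 FPKM in P+ roots and 0 and 0.329 FPKM in P+ shoots (-5.08). The root libraries of both supplies stood close, and the P- shoot libraries, in which root markers also read higher, stood above the P+ ones. The part of that root signal was not tested beyond the root share above. The call of AT4G12520 was also made with that share taken off (-3.74, adjusted p = 0.0338). AGP13, an arabinogalactan peptide, had 65.2 and 86.6 FPKM in P- roots and 22.6 and 7.85 FPKM in P- shoots, against 304 and 285 FPKM in P+ roots and 0 and 0.918 FPKM in P+ shoots. GDU5, IRT1, AT3G56730 and AT4G39675 completed the 8, each with both P- root values below both P+ root values. The calls of AGP13, GDU5, IRT1 and AT4G39675 were lost without P+ shoot library 1.

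**Figure D4:**
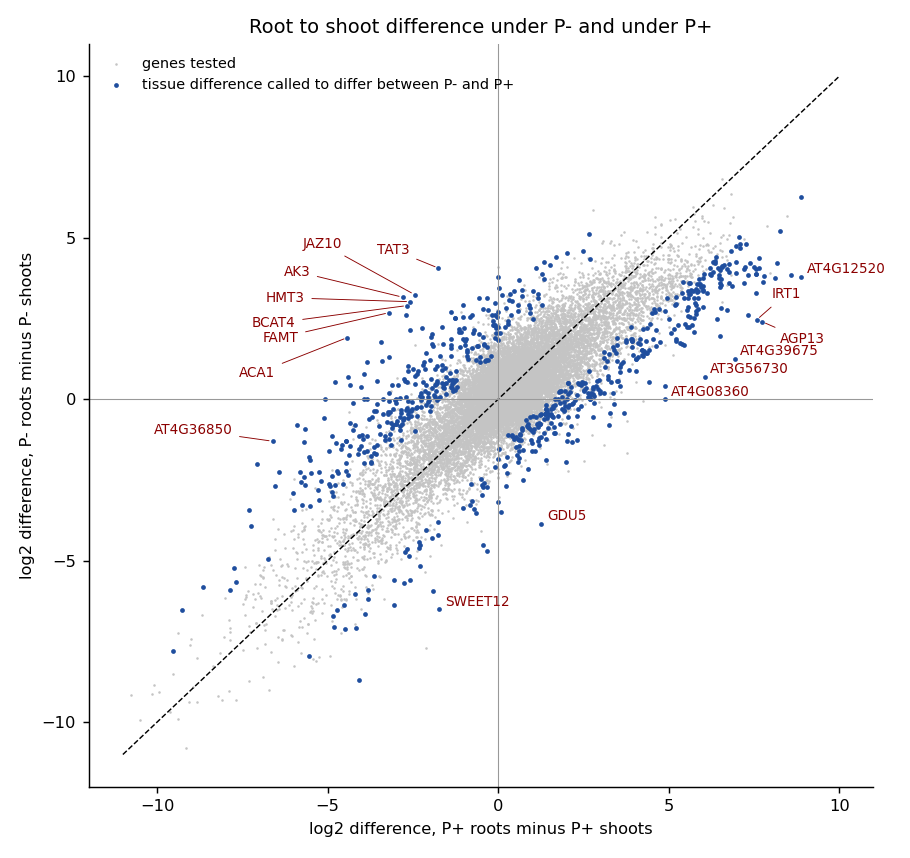
Log2 tissue difference (roots minus shoots) of 19743 coding genes under P- (vertical axis) against that under P+ (horizontal axis), with the 702 genes whose difference was called changed in blue, the line of equal values dashed, and the 16 genes with the largest change named. Most genes lie along the line, and strong root genes lie below it at the right, with the root signal in P- shoots not taken off.

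The lncRNAs were called less often than coding transcripts. Of 353 TAIR10 lncRNAs tested, 51 (14.4%) differed, 20 (5.67%) higher in P- roots and 31 (8.78%) in P- shoots, and of 1029 assembled lncRNAs 199 (19.3%) differed, 140 (13.6%) in roots and 59 (5.73%) in shoots. At the same transcript level 27.8% of 26013 coding transcripts were called. Between replicates, r over lncRNAs was 0.738 for the P- root libraries and 0.806 for the P- shoot libraries. With a library left out the counts of calls ranged from 20 to 68 for TAIR10 lncRNAs and from 100 to 255 for assembled ones, lowest without P- shoot library 2. The order of the TAIR10 counts turned without P- root library 3 (15 in roots, 14 in shoots) or P- shoot library 1 (16 and 14). Intergenic lncRNAs were called most often, 22 of 64 (34.4%), against 18.9% of 876 antisense ones.

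Among TAIR10 lncRNAs, AT3G27884.1 (chr3:10346086-10348282) led the root side with 42.1 and 56 FPKM in P- roots against 1.75 and 0 FPKM in P- shoots (4.90, SE 0.57, adjusted p = 0.00114). AT3G52748.1 (chr3:19548972-19549589) had 430 and 93.4 FPKM against 8.98 and 5.43 FPKM (4.65), and AT1G55525.1 (chr1:20728329-20728745) 46.1 and 27 FPKM against 0 and 2.05 FPKM (4.38). AT3G12502.1, antisense to the basic chitinase gene HCHIB, and AT5G10278.1 completed the 5. The calls of these last 2 were lost when P- root library 2 or P- shoot library 2 was left out. AT1G55525.1 was near 0 in fed roots, with a mean of 1.1 FPKM, but its change was not called (adjusted p = 0.193). On the shoot side AT1G23052.1 (chr1:8168443-8169267) had 1.88 and 1.34 FPKM in P- roots against 53.4 and 73.1 FPKM in P- shoots (-4.61, SE 0.30, adjusted p = 0.000146). AT1G69572.1, antisense to AT1G69570, AT1G67105.1, AT3G21755.1 and AT3G22121.1, antisense to the cell wall gene CWLP, stood at -3.37 to -4.41, and the call of AT3G22121.1 was lost without any of the 4 P- libraries. AT1G23052.1 lies across from AT1G23050, at the same coordinates, which was itself higher in P- shoots (-2.36, limma adjusted p = 0.000576). AT3G21755.1 lies across from HYR1, also higher in P- shoots (-3.47). The limit on strand given below for assembled lncRNAs holds for these pairs too.

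Of the 5 assembled lncRNAs named at the shoot end, 3 lay across from photosynthesis genes. XLOC_012822 (chr2:14524765-14525765, minus strand), antisense to LHCB1.4, had 1.34 and 0.531 FPKM in P- roots against 1882 and 1186 FPKM in P- shoots (-9.63, SE 0.35, adjusted p = 2.83e-05). LHCB1.4 itself had 1.11 and 0.941 FPKM against 2204 and 1227 FPKM, nearly the same in every library. XLOC_014731 (chr3:7376594-7377099), across from the PSII gene PSBTN, had 13 and 21.3 FPKM against 2681 and 1412 FPKM (-6.78), and XLOC_001577 (chr1:10474878-10475930), across from LHCB1.1, 5.92 and 0.444 against 443 and 218 FPKM (-6.62). The other 2 were XLOC_032377, across from AT5G65610, listed at 0 in both P- root libraries and with 107 and 68.4 FPKM in P- shoots, and XLOC_013445, across from AT2G45180, with 15.7 and 7.13 FPKM against 956 and 866 FPKM (-6.29). The labels give an unstranded setting for some of these libraries and a first-strand setting for others, and the root columns cannot be tied to either, so reads of a gene and of its antisense lncRNA may not have been told apart.

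On the root side XLOC_009075 (chr2:6877724-6878020), antisense to SQN, a cyclophilin, had 111 and 71.5 FPKM in P- roots and was at 0 or 2.18e-09 FPKM in P- shoots. SQN itself was not called, with 15.7 and 20.6 FPKM against 8.22 and 11 FPKM (0.85, adjusted p = 0.108). XLOC_009865, across from the glutathione transferase gene GSTU6, had 30.1 and 176 FPKM against 3.56 and 0.00288 FPKM (5.12), and its call was lost without P- root library 3 or P- shoot library 2. XLOC_016219, XLOC_020833 and XLOC_009020 stood at 4.92 to 5.61, and the call of XLOC_009020 was lost in each fit that left out a P- library.

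Antisense lncRNAs mostly sat on the same side as the gene across from them. Over 783 pairs with 733 genes, Pearson's r of the 2 tissue differences was 0.734 and Spearman's rho 0.693, as a description over pairs of the same libraries and, where strand is not resolved, of shared reads. Of 104 pairs with a root-higher lncRNA, the gene was higher in roots in 75, in shoots in 1 and not called in 28. Of 47 with a shoot-higher lncRNA, it was higher in shoots in 36, in roots in 1 and not called in 10. The background is 24.5% and 14.9% of genes. The 2 opposed pairs were XLOC_016203, with 3.05 and 6.78 FPKM in P- roots against 58.1 and 40.8 FPKM in P- shoots, across from the aspartyl protease gene AT3G51330, with 54.6 and 59.6 FPKM against 4.59 and 4.34 FPKM, and XLOC_014746 across from AT3G21300 (3.78 and -1.48).

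**Figure D5:**
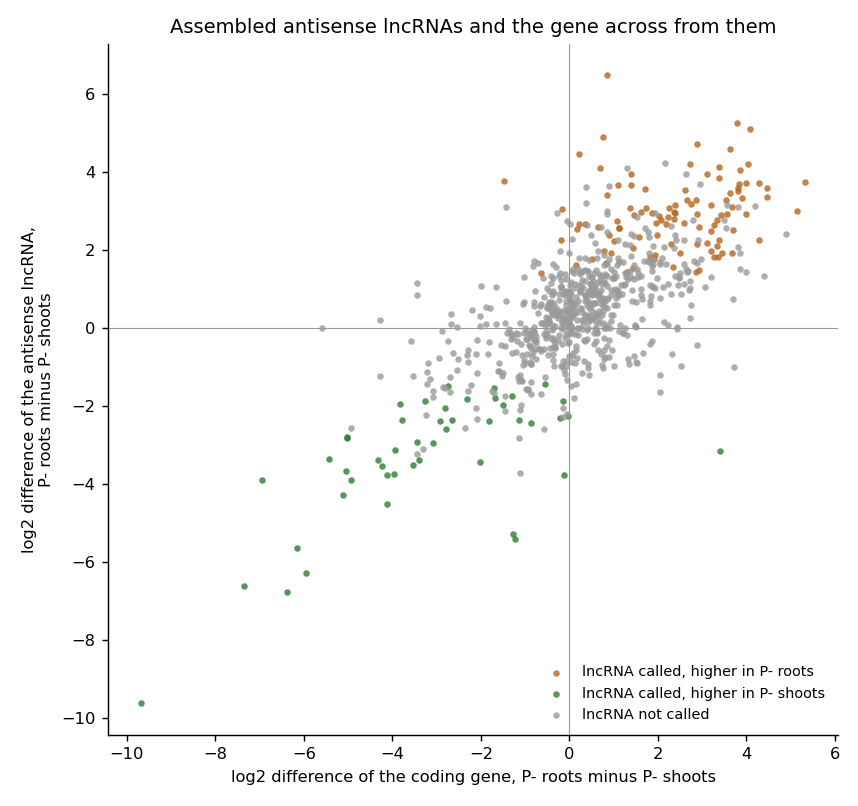
Log2 tissue difference (P- roots minus P- shoots) of 783 assembled antisense lncRNAs (vertical axis) against that of the coding gene across from each (horizontal axis), coloured by the call of the lncRNA. Pairs in which both the lncRNA and the gene were called fall in the lower left and upper right, with 2 in the opposite corners.

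Few lncRNAs had a called change of their tissue difference between P- and P+. Of 1382 lncRNAs 155 were called the same way under both supplies, 62.0% of the P- calls and 45.7% of the P+ calls, and 1 the opposite way. The change itself was called for 2 (0.145%), with 179 at an unadjusted p of 0.05. XLOC_006685 (chr1:19603197-19603579), antisense to AT1G52618, had 0 and 2.36 FPKM in P- roots and 114 and 52.3 FPKM in P- shoots, against 29.9 and 48.7 FPKM in P+ roots and 2.9 and 1.86 FPKM in P+ shoots (-8.97, SE 0.92, adjusted p = 0.0262). AT5G48412.1 (chr5:19623516-19624232) had 101 and 111 FPKM in P- roots and 232 and 189 FPKM in P- shoots, against 391 and 237 FPKM in P+ roots and 60.2 and 59.5 FPKM in P+ shoots (-3.31, SE 0.40, adjusted p = 0.0459). Both calls were lost when any 1 of the 4 P- libraries or the 2 P+ shoot libraries was left out.

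The poly(A)- libraries, made from the same RNA preparations, gave the same direction for most calls. Of 4841 root-higher coding genes 95.6% had the same sign there, and of 2932 shoot-higher ones 94.7%. For lncRNAs the shares were 87.5% of 160 and 82.2% of 90. These libraries share their plants with the poly(A)+ ones and are not independent samples.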

How the data were processed

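Poly(A)+ RNA of roots and shoots was bound to oligo(dT) beads and made into libraries with the dUTP method. The labels place the removal of ribosomal RNA ahead of this separation, whereas the methods of the study give it for the unbound fraction. Per the labels and the methods of the study, the authors aligned reads with TopHat2 to TAIR10, assembled transcripts and deposited FPKM values per transcript and library, which are normalised to transcript length and library size. The authors' fold changes and p-values were not used. Counts of reads were not used here.

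FPKM of coding transcripts was summed per gene. limma 3.58.1 in R 4.3.3 fitted log2(FPKM + 1), with an intensity trend, to 4 groups of 2 poly(A)+ libraries, and features averaging 1 FPKM or more across these libraries entered the test: 19743 of 27206 coding genes, and 27395 transcripts including 353 of 480 TAIR10 and 1029 of 1161 assembled lncRNAs. p-values were two-sided and adjusted after Benjamini and Hochberg over all features. The test was checked on simulated data, where it missed many true differences, above all the smaller ones. A gene or lncRNA that was not called is therefore not shown to be equal in roots and shoots. A far smaller share of features differed in the simulated data than was called here, so the share missed there cannot be carried over to this comparison. With 1 library left in a group, its spread was taken from the other groups.

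Members and the 25 lists were chosen with earlier results of these data known. Named were the 12 called genes with the largest difference per direction and at least 50 FPKM in both libraries of the higher group, the 8 with the largest change of the tissue difference per direction and at least 10 FPKM in both libraries of a group, and the 5 lncRNAs per class and direction with at least 2 FPKM, besides list members, markers and antisense partners. Alternatives covered the added FPKM, the filter, the libraries in the fit, scaling, the trend, the threshold, each library left out and, chosen after seeing the data, the root share taken off P- shoots. Names, coordinates and promoters come from RefSeq TAIR10.1, whose nuclear chromosomes are those of TAIR10, read in Python 3.11.15. Tables were handled with pandas 2.3.3, numpy 2.4.6 and scipy 1.17.1. It matched 26719 coding genes. The values of 1 list member are not reported here.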

Additional observations from a re-analysis of the deposited data

Results flagged for a closer look

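The change of the tissue difference, P- minus P+, was tested with limma, and the genes with the largest called changes are those a reader may want to look at again. With a larger value under P- these were ACA1 (6.33), AK3 (5.97), FAMT (5.88), TAT3 (5.81), JAZ10 (5.69), HMT3 (5.61), BCAT4 (5.57) and AT4G36850 (5.31). Except for AT4G36850, which was shoot-higher under both supplies, each was called higher in roots under P- and higher in shoots under P+. AK3 had 142 and 151 FPKM in P- roots and 15.4 and 15.5 FPKM in P- shoots, against 13.5 and 7.8 FPKM in P+ roots and 69.1 and 87.4 FPKM in P+ shoots. None of these 8 calls was lost in a fit that left out 1 library.

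With a smaller value under P- they were AT4G39675 (-5.68), AT3G56730 (-5.36), AGP13 (-5.34), GDU5 (-5.12), IRT1 (-5.12), AT4G12520 (-5.08), AT4G08360 (-4.90) and SWEET12 (-4.79). The values of IRT1 and AT4G08360 depend on the 1 FPKM added, since whole groups were listed at 0. The calls of AGP13, AT4G39675, GDU5 and IRT1 were lost in 2, 4, 4 and 4 of the 8 fits that left out 1 library, P+ shoot library 1 among them each time, with IRT1 at an adjusted p of up to 0.0802. GDU5 had 0 and 2.41 FPKM in P- roots and 32.7 and 20.2 FPKM in P- shoots, against 30.3 and 29.9 FPKM in P+ roots and 14.4 and 9.83 FPKM in P+ shoots. The lncRNAs XLOC_006685 (-8.97) and AT5G48412.1 (-3.31) were flagged by the same test.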

How the results depend on the processing

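The coding count of 7773 ranged from 5777 (5 FPKM added) to 8241 (root share taken off P- shoots) over the alternatives, and from 5774 to 8165 with 1 library left out. No paired analysis was possible because the root columns, numbered 2 and 3, cannot be tied to the replicate numbers of the labels. At an unadjusted p of 0.05 the calls were 82 TAIR10 and 301 assembled lncRNAs, 3911 changed coding tissue differences and 179 changed lncRNA ones, against 51, 199, 702 and 2. Leaving out 1 library gave 20 to 68 TAIR10 and 100 to 255 assembled calls, 42 to 2645 changed coding tissue differences and 0 to 83 changed lncRNA ones. The count of changed coding tissue differences came to 42, 47, 44 and 64 without P+ shoot library 1 or 2 or P- shoot library 1 or 2, to 115 and 285 without P- root library 2 or 3, and came to 1086 and 2645 without P+ root library 2 or 3. The P+ root libraries differed most from each other. The 2 changed lncRNAs became 6 with 5 FPKM added, 1 after median-ratio rescaling, 1 with the root share taken off and 0 with no intensity trend.

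Median-ratio rescaling moved the split of root-higher and shoot-higher calls from 20 and 31 to 15 and 39 for TAIR10 lncRNAs. With the root share taken off, 60.1% of changed coding tissue differences were larger under P-, in place of 46.2%, BGLU21 reversed to 0.72 and BGLU22 to 1.25, and the calls of CASP1, CASP4, PER64, CYP86A1, PHO1, PHT1;1, F6'H1 and AT5G48412.1 were lost. The cause of the root signal in P- shoots was not tested. Over 405 tissue differences under P- of single genes and lncRNAs, 162 of 3240 values with a library left out lost the call, and 53 of the 405 lost it at least once. Over 58 changed tissue differences, 233 of 464 values did. Over the alternatives that kept all libraries of the comparison, 47 of the 405 tissue differences lost the call in 61 values, and 31 of the 58 changes lost it in 53 values, with 2 reversed.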
